A study of Rattus norvegicus with 8 samples.

Results

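The comparison described here sets the lungs of saline-pretreated rats after 24 and 48 h of hypobaric hypoxia against the lungs of saline-pretreated rats after 6 and 12 h of it. Its members are the 4 arrays whose labels give saline as the pretreatment, out of 8 arrays in the series. Each array carried lung RNA after hypoxia in the Cy5 channel and lung RNA of saline rats at 0 h in the Cy3 channel, and the labels give the 0 h RNA the same name on all 4 arrays. For each gene, the mean log2 ratio of hypoxia over 0 h at 24 and 48 h (called late) minus the mean at 6 and 12 h (called early) was taken. Because the 0 h RNA, the dyes and the slide are shared, they cancel in this difference. They do not cancel in the ratios themselves. Dye bias and the use of the same 0 h RNA are thus part of any value given as above or below 0 h. The late group was 1 array at 24 h and 1 array at 48 h, and the early group was 1 array at 6 h and 1 array at 12 h. All 4 arrays were from rats given normal saline for 7 days and then exposed to a simulated altitude of 30000 ft for the stated time, and the labels do not say how many animals each RNA held. The 4 other arrays were from rats that had received cobalt in place of saline (12.5 mg/kg, again for 7 days) before the same durations. On those arrays the dyes were reversed and the slide was another, so pretreatment, dye and slide cannot be told apart, and they were used here to estimate the spread and for a comparison of the time courses.

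At high altitude the low oxygen pressure stabilizes the hypoxia-inducible factors (HIF), transcription factors that switch on glycolysis, glucose uptake and vascular genes. Sudden exposure is also a stress: the adrenal gland releases glucocorticoids, which enter lung cells and, through their receptor, induce genes such as Fkbp5 and Tsc22d3, while chaperones and acute phase proteins form other arms of the stress response. Such responses often fade while an exposure lasts, whereas the rebuilding of extracellular matrix and vessel wall is known as a slower process in the hypoxic lung.

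Signals were well above background in 62.8% to 67.2% of Cy3 spots and 68.2% to 72.7% of Cy5 spots on the saline arrays. The markers used to check the tissue (Sftpa1, Sftpb and Sftpc of surfactant-producing type II cells, Ager and Aqp5 of type I cells, Scgb1a1 of club cells) were well above background in both channels on all 4 arrays. Across genes, which are not independent replicates, the log2 ratios of pairs of saline arrays correlated at 0.565 to 0.698. The 24 h and 48 h arrays correlated at 0.680 and the 6 h and 12 h arrays at 0.601, while 12 h and 24 h correlated at 0.698, so the 2 arrays of a phase were not closer to each other than to all arrays of the other phase. The 0 h channels correlated at 0.992 to 0.998. In RNA of whole lung, fewer cells of a type and less RNA per cell cannot be told apart.

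No gene passed the test between late and early hypoxia. Of 24153 genes tested, 0 (0%) had a Benjamini-Hochberg adjusted p under 0.05 in limma, with the spread estimated from all 8 arrays, and the lowest adjusted p was 0.28 for Akap5 among genes with a current symbol (0.16 over all genes). At an unadjusted p under 0.05 there were 2457 genes (10.2%). The limma fit to the saline arrays alone also called 0 genes (1482 at an unadjusted p under 0.05), and a straight line over log2 duration called 2, of which galanin (Gal) was the only one with a current symbol. The count rested on the 6 h array: without it, 59 genes passed, of which 57 were lower at 24 and 48 h than at 12 h. The same fit without the 6 h array called 9 genes in the 0 h channel. Without the 24 h array 2 genes passed, both without a current symbol, and without the 12 h or the 48 h array none did. When 1 array of a phase was left out, the other was assumed to vary like the rest of the arrays. The labels do not say that the samples came from separate animals, so these p-values measure only the spread between arrays. That spread is not one of replicates, as it includes the differences between 6 and 12 h and between 24 and 48 h. A gene that moved steadily with duration thus has a larger SE. In what follows values are given as a description, and no gene is said to have changed.

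To describe sizes, a gene was counted as standing apart when its late and early means differed by at least 1.5-fold and both late arrays lay on the same side of both early arrays. This rule was chosen after the test had been seen, and so were the genes named below for their size or as examples that overlapped. By it 607 genes (2.51%) were higher late and 555 genes (2.3%) were lower late. These shares are the background for every count of list members given below. The lists and their members were chosen with earlier results of these data known, so a count above these shares is a description and not a test. The same rule on the 0 h channel, where the RNA carries the same name on all 4 arrays, gave 44 genes (0.182%) higher and 62 genes (0.257%) lower on the late arrays. The difference between late and early means had a standard deviation across genes of 0.305 on the log2 scale, against 0.171 in the 0 h channel. Within a phase the single arrays were further apart, with a standard deviation of 0.467 for 12 h minus 6 h and 0.343 for 48 h minus 24 h. A difference of 2 single arrays carries more noise than a difference of 2 means of 2, and the curves of difference size show both. The 0 h channel value is a level of RNA of the same name, so its 0.171 leaves out differences between the hypoxic samples. How much of the 0.305 comes from the spread within a phase was not tested.

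**Figure D1:**
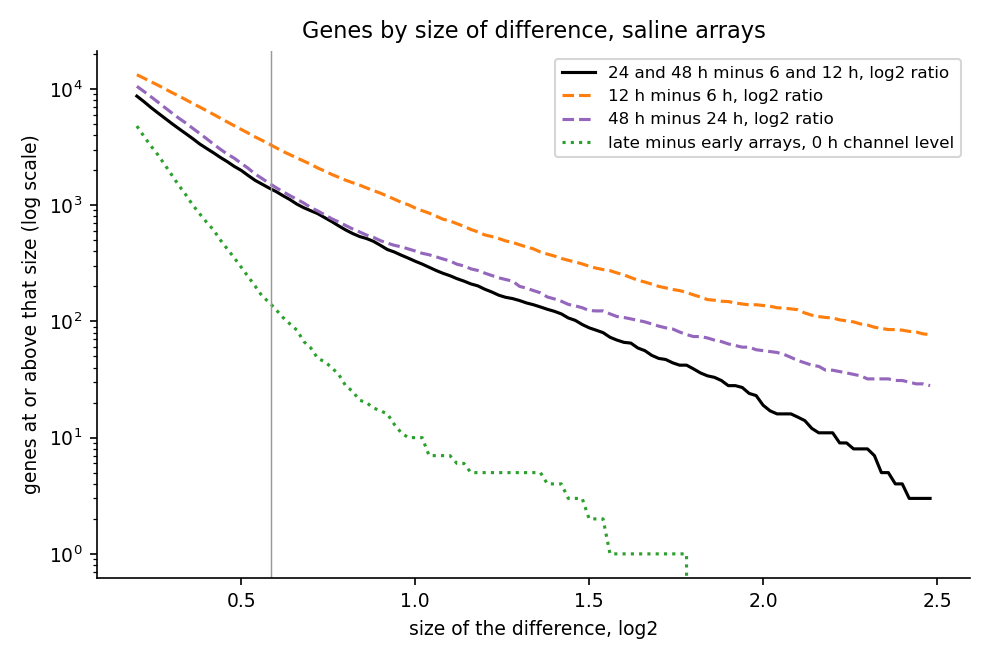
Number of genes (vertical axis, log scale) whose difference reached the size on the horizontal axis (log2 units), for the late minus early ratio (solid), for the arrays within each phase (dashed) and for the 0 h channel (dotted). The grey line marks 1.5-fold. At 2-fold the late minus early ratio has 329 genes and the 0 h channel 10, while 12 h minus 6 h has 944 and 48 h minus 24 h has 403.

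Most of the genes that stood apart were further from their 0 h level early than late. Of the 1162 such genes, 823 (70.8%) were nearer to the 0 h level late, 312 were further from it late and 27 lay on opposite sides of it in the 2 phases, by at least 0.5 log2 units on each side. Among all genes tested, 55.2% were nearer to 0 h late. These classes depend on where the 0 h level lies, and there dye bias and the shared 0 h RNA do not cancel. Those nearer to 0 h late were split nearly evenly: 397 had been above 0 h early and 426 below it. Of the genes further from 0 h late, 169 were above 0 h late and 143 below it.

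**Figure D2:**
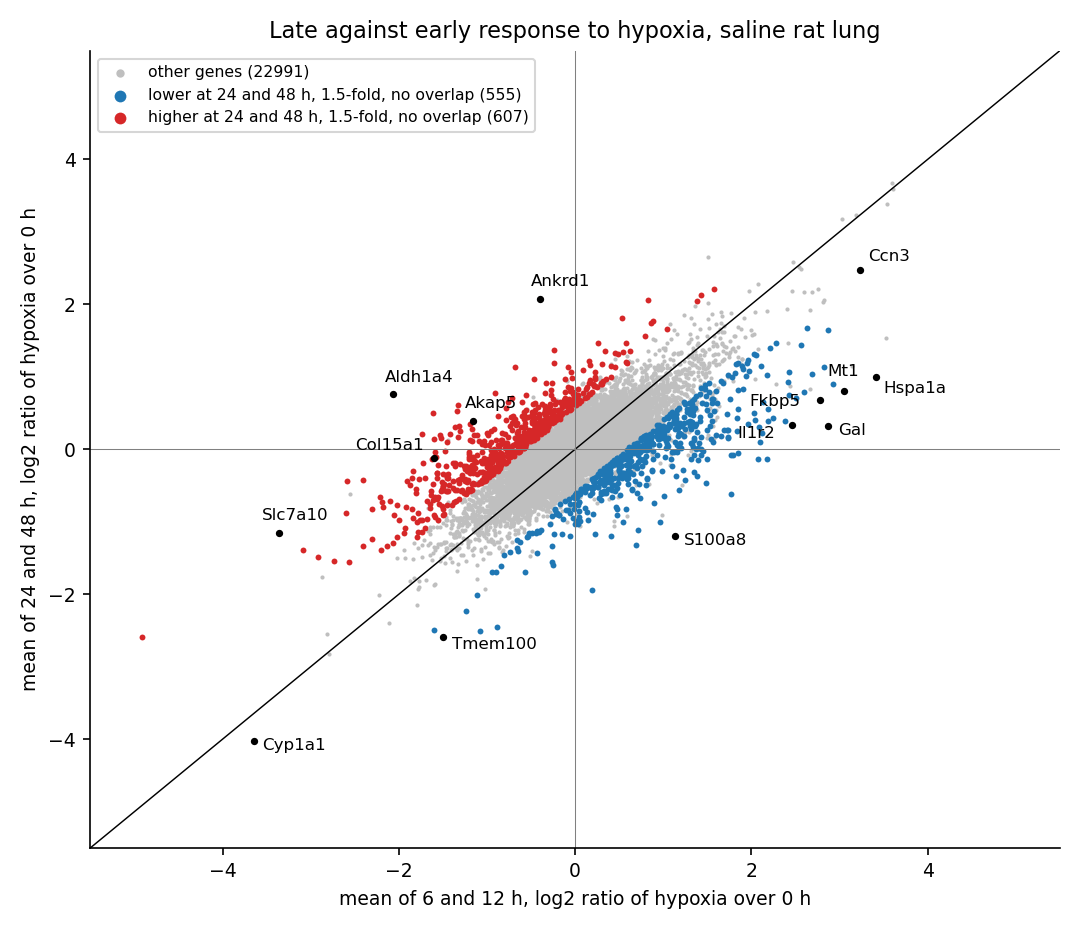
Mean log2 ratio of hypoxia over 0 h at 24 and 48 h (vertical) against that at 6 and 12 h (horizontal), 1 point per gene, with the line of equality. Of 24153 genes, 607 stood apart above the line (red) and 555 below it (blue), and named genes are black points. Most coloured points lie nearer to 0 on the vertical axis than on the horizontal axis.

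The 10 genes with a current symbol and the lowest p were Akap5, Herpud1, Clec4d, Ifitm3, Ednra, Armcx2, Pcdha4, Wif1, Il22ra2 and Upp1, and each had an adjusted p of 0.28 or 0.35. Akap5, an anchoring protein that holds protein kinase A at the membrane, had log2 ratios of -1.09, -1.23, 0.54 and 0.25 at 6, 12, 24 and 48 h. It was slightly above its 0 h level late and below it early, a late minus early difference of 1.55 ± 0.18 (SE), or 2.93-fold. Ednra, the receptor through which endothelin constricts vessels, read -0.21 and -0.05 late against -1.90 and -1.34 early. It thus stood near its 0 h level on both late arrays, with a difference of 1.49 ± 0.23, although its second probe gave 0.21. Wif1, a secreted inhibitor of Wnt signalling, had ratios of -1.67, -1.46, -0.16 and -0.50 in order of duration. The differences were 1.23 ± 0.19 for Wif1, 1.35 ± 0.21 for Armcx2 and 1.39 ± 0.22 for the protocadherin Pcdha4, the last with a span of 0.04 to 1.39 over its 3 probes.

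The other members of those 10 were lower late. Ifitm3, an interferon-inducible membrane protein that restricts virus entry, had ratios of 0.97, 1.07, -0.27 and 0.06 at 6, 12, 24 and 48 h. Upp1, which breaks down uridine, read 0.30, 0.78, -0.99 and -1.02 in order of duration. Upp1 was thus below its 0 h level late and above it early, with a difference of -1.55 ± 0.25, while Ifitm3 was near it late, with a difference of -1.13 ± 0.17. Herpud1, a part of the machinery that degrades misfolded proteins of the endoplasmic reticulum, read 0.13 and 0.32 late against 1.27 and 1.08 early (difference -0.95 ± 0.14). The lectin receptor Clec4d of myeloid cells and Il22ra2, a soluble decoy for interleukin 22, had differences of -1.19 ± 0.18 and -1.20 ± 0.19.

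The genes furthest apart were not those of lowest p, since their arrays differed more within a phase. Among genes lower late, Gal, a neuropeptide, had the largest difference: its log2 ratios were 3.45, 2.30, 0.80 and -0.17 at 6, 12, 24 and 48 h. Gal was thus about its 0 h level by 48 h, with a late minus early difference of -2.56 ± 0.53 and an adjusted p of 0.35 in limma. Between the late and early arrays its hypoxia channel differed by -3.35 and its 0 h channel by -0.79. Mt1, a metallothionein that binds zinc and copper, had ratios of 3.85, 2.25, 0.70 and 0.91, a difference of -2.25 ± 0.74. S100a8 and S100a9, which together form the calprotectin of neutrophils, read 0.57, 1.70, -0.51 and -1.90 and 0.37, 1.56, -0.30 and -1.70 in order of duration. Both calprotectin genes were highest at 12 h and lowest at 48 h, with differences of -2.34 ± 0.54 and -1.97 ± 0.52, and the 3 probes of S100a8 spanned -2.34 to -0.98. Xdh, the enzyme that makes uric acid, had ratios of 0.21 and -0.30 late against 2.00 and 1.70 early, a difference of -1.90 ± 0.34. Its early arrays were close to each other and clear of both late arrays.

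Other genes lower late were enzymes of drug and lipid handling. Cyp2e1, which oxidizes ethanol and other small molecules, was above 0 h on the 6 h array alone, with 2.06 there and -0.67, -0.88 and -1.77 at 12, 24 and 48 h. Acot1, which splits acyl-CoA in the cytosol, had 3.16, 2.70, 1.71 and 0.08 in order of duration. Acot1 was lower at each longer duration, whereas most of the difference of Cyp2e1 came from its 6 h array. The differences were -2.02 ± 0.74 for Cyp2e1 and -2.03 ± 0.91 for Acot1. Gnat2, known as a transducin of cone photoreceptors, was below its 0 h level late (-1.82 and -2.05) and near it early (0.16 and 0.22), a difference of -2.13 ± 0.45 on its brighter probe and -1.04 on the other. Amigo2, a cell adhesion protein, read -2.50 on both late arrays against -1.03 and -1.13 early, below 0 h throughout.

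Among genes higher late, Aldh1a4, an aldehyde dehydrogenase, was furthest apart. Its log2 ratios were -2.47, -1.65, 0.39 and 1.12 at 6, 12, 24 and 48 h, a difference of 2.82 ± 0.94 or 7.05-fold. Ankrd1, a nuclear and sarcomeric protein induced by stretch and by injury, stood at -0.52, -0.29, 1.30 and 2.86 in order of duration. It was above its 0 h level on both late arrays only, with a difference of 2.48 ± 0.49. The amino acid transporter Slc7a10 had -1.19 and -1.11 late against -3.30 and -3.42 early, so it was below 0 h on all 4 arrays (difference 2.21 ± 0.52). Vsnl1, a neuronal calcium sensor, read -2.53, -2.65, -0.65 and -0.23 in order of duration. Atp1b4 had 0.50 and -0.08 late against -1.73 and -1.75 early, and the sodium channel gene Scn7a had 0.80 and 0.43 late against -1.34 and -1.32 early. In Vsnl1, Atp1b4 and Scn7a the early arrays lay close together and were clear of the late ones, and the differences were 2.15 ± 0.61, 1.95 ± 0.33 and 1.94 ± 0.41. Adjusted p-values in limma were 0.35 to 0.43 for the genes of this paragraph.

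**Figure D3:**
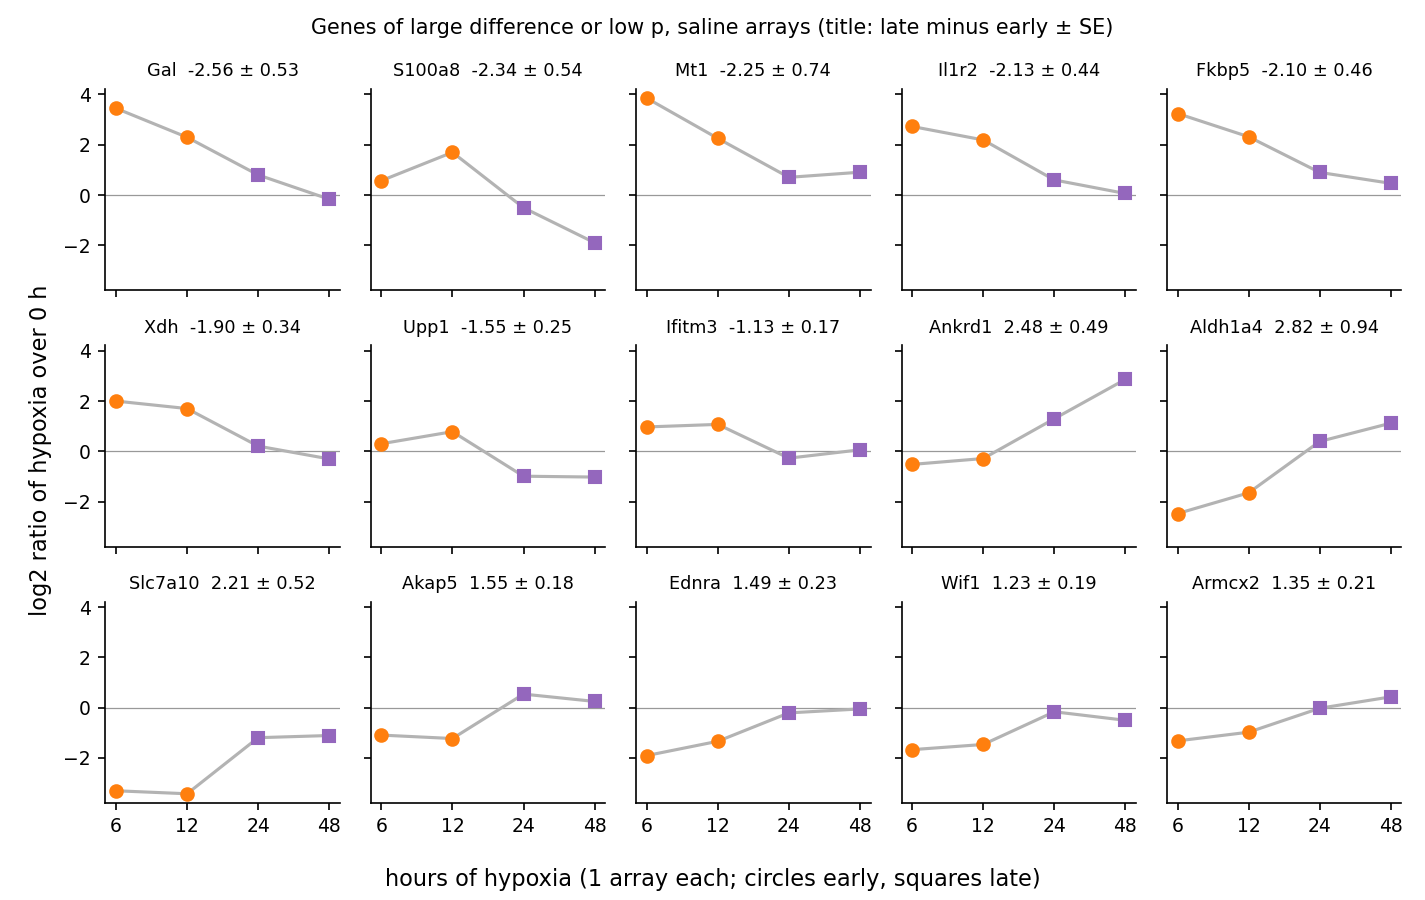
Log2 ratio of hypoxia over 0 h (vertical) on each saline array (horizontal, hours of hypoxia), 1 panel per gene, with early arrays as circles and late arrays as squares. The title of each panel gives the late minus early difference with its SE. In all 15 genes shown both late arrays lie on the same side of both early arrays.

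Genes known to be induced by glucocorticoids, listed together with the receptor Nr3c1 and the enzymes Hsd11b1 and Hsd11b2, formed the list with the lowest median difference. Of 24 measured members 13 stood apart as lower late and 2 as higher late, against 2.3% and 2.51% of all genes, and 0 passed the test. The list's median late minus early difference was -0.84, beside -0.01 over all genes tested, and its median log2 ratio was 0.97, 0.22, -0.19 and -0.28 at 6, 12, 24 and 48 h. Fkbp5, a chaperone that restrains the glucocorticoid receptor and is among its best known targets, had ratios of 3.24, 2.32, 0.90 and 0.46. Each later array was lower than the one before, and the difference was -2.10 ± 0.46, or 4.28-fold, with all 3 probes at -1.34 or lower. Il1r2, a decoy receptor for interleukin 1, followed the same order with 2.73, 2.19, 0.60 and 0.06. Tsc22d3, the glucocorticoid-induced leucine zipper, was above 0 h at 6 h alone, with 1.10 against -0.17, -0.64 and -0.95 afterwards, and Klf9 had 1.10, -0.09, -0.42 and -0.83. For Il1r2, Tsc22d3 and Klf9 the differences were -2.13 ± 0.44, -1.26 ± 0.37 and -1.13 ± 0.39. Map3k6, a kinase of stress signalling, and the cell cycle inhibitor Cdkn1a had differences of -1.78 ± 0.51 and -1.47 ± 0.41, though a second Cdkn1a probe gave -0.37 and a second Tsc22d3 probe -0.65.

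Not all glucocorticoid-related genes followed this course. Sgk1, a kinase that raises sodium channel activity, had 0.89, 1.36, 1.40 and 0.57, so its early and late arrays overlapped (difference -0.14 ± 0.32). The receptor itself, Nr3c1, was slightly below 0 h throughout, with -0.74, -0.53, -0.25 and -0.44. Hsd11b2, the enzyme that inactivates glucocorticoids, had -2.01 and -0.96 late against -3.04 and -2.80 early, below 0 h throughout (difference 1.44 ± 0.35). Hsd11b1 was the other member higher late (difference 0.70 ± 0.36). Of the 24 members 9 also belong to another list used here, among them the neutrophil genes S100a8 and Il1r2 and the zinc gene Mt1.

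The hours of day at which lungs were taken are not given in the labels, and genes of the circadian clock move with glucocorticoids and with time of day, and so the clock genes are set beside them. Of 15 measured clock genes 2 stood apart, Per1 and Nfil3, both lower late, and the list's median difference was 0.03. Per2, which represses the clock's own activators and responds to glucocorticoids, had 2.51, 0.55, 0.61 and 0.79, so the 6 h array was far above the other saline arrays. Cry1, its partner, read 2.12, 1.04, 1.13 and 0.46. Among the repressed arm, Nr1d1 had -0.99, -1.90, -1.13 and -0.32, and Dbp, a direct clock output, had 0.65, -0.83, -0.60 and 0.68. Dbp was thus higher at 6 and 48 h than at 12 and 24 h, so its late and early arrays overlapped. The differences were -0.84 ± 0.58 for Per2, -0.79 ± 0.35 for Cry1, -0.64 ± 0.37 for Per1 and -0.64 ± 0.27 for Nfil3. Positive differences were 0.72 ± 0.42 for Nr1d1, 0.26 ± 0.24 for Nr1d2, 0.17 ± 0.39 for Per3, 0.13 ± 0.65 for Dbp, 0.12 ± 0.21 for Cry2, 0.08 ± 0.34 for Tef, 0.08 ± 0.22 for Bhlhe40 and 0.03 ± 0.23 for Npas2. Bhlhe41, Bmal1 and Rora had -0.58 ± 0.31, -0.20 ± 0.51 and -0.04 ± 0.10. The part of time of day in the differences between late and early arrays was not tested.

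Mt1 also heads the list of metallothionein, zinc and iron genes, of which 2 of 19 stood apart, Mt1 and transferrin (Tf), both lower late. The zinc-sensing factor MTF1 binds metal response elements, whose core letters TGCGCNC were searched on both strands in the 300 bases from 250 before to 50 after the start of each gene in the RefSeq annotation of GRCr8. These letters were in a promoter of 10 of the 16 list genes found and in 14.1% of all 33469 promoters, which belong to 27457 genes. Here and below, list members are counted by gene, with a match in any promoter, and the background by promoter. The shares are thus in unlike units. Stretches shown here and below, with their matches, are taken from the 250 bases before the start. The stretch of the Mt1 promoter that holds its 3 matches there is shown because Mt1 was furthest apart in the list. It is chr19:10832999-10833138 on the minus strand, with the matches in capitals.
Mt1: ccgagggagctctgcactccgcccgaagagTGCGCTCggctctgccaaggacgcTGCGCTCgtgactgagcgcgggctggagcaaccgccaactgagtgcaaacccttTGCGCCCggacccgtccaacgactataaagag
Mt1 itself is among the holders: the measured members that hold them had a median difference of -0.12 (9 genes), and those that do not had -0.25 (6 genes).

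Acute phase and coagulation genes, made in the response to injury, were also mostly lower late. Of 28 measured members 13 stood apart as lower late and 1 as higher late, against 2.3% and 2.51% of all genes. The median difference was -0.50. The list's median log2 ratio was 0.71, 0.55, 0.10 and 0.38 in order of duration, so it was above 0 h on each array. Saa4, a serum amyloid A protein, had 0.70 and 0.73 late against 2.34 and 2.67 early. Procr, the endothelial receptor of protein C, had 0.21 and 0.10 late against 2.02 and 1.45 early. Both genes had their early arrays well above their late arrays, with differences of -1.79 ± 0.52 and -1.58 ± 0.31, and the second probes gave -0.53 and -1.21. Serpina3n read 2.71, 2.95, 1.19 and 1.07, a difference of -1.70 ± 0.62. Between late and early arrays its hypoxia channel differed by -3.12 and its 0 h channel by -1.42. Plau, the urokinase that activates plasminogen, was the member higher late, with -0.24 and 0.21 late against -0.85 and -1.06 early.

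Neutrophil genes were lower late in the calprotectin genes and in proteases. Of 15 measured members 6 stood apart, all as lower late, against 2.3% of all genes. The list's median difference was -0.68, and 13 of 15 differences were negative. Mmp8 and Mmp9, collagenase and gelatinase of neutrophil granules, had differences of -1.01 ± 0.27 and -0.80 ± 0.21. The integrin Itgam had -1.58, -1.34, -1.61 and -0.48, and its phases overlapped. Timp1, an inhibitor of such proteases, was above 0 h throughout with 1.40 and 1.47 late against 2.52 and 2.61 early. Of 17 measured matrix protease and inhibitor genes 5 stood apart, all as lower late and with Timp1, Mmp8 and Mmp9 among them, while the list's median difference was 0.05. Macrophage and adhesion genes included members on either side. Mrc1, the mannose receptor of macrophages, had a difference of -1.04 ± 0.26, and Adgre1, a surface receptor of macrophages, 0.73 ± 0.29. Between late and early arrays the hypoxia channel differed by -0.81 for Mrc1 and 0.26 for Adgre1. The 0 h channel differed by 0.23 and -0.47, so most of the Adgre1 difference lay in the 0 h channel. Vcam1 had -1.36, 0.15, 0.41 and 0.89, a difference of 1.26 ± 0.48, and Ccl2, which draws monocytes, was above 0 h on all arrays, with 1.39, 1.47, 1.96 and 2.31.

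Genes of the hypoxia pathway itself are set out by role. Of the 10 measured HIF subunits and hydroxylases 0 stood apart, and Hif1a read 0.18, 0.59, 0.38 and 0.41 in order of duration. Epas1, the HIF subunit of endothelium, was below 0 h on every array, with -1.66, -2.10, -1.92 and -1.72. Vegfa, the vascular growth factor, was also below 0 h throughout, with -1.41, -1.76, -1.31 and -1.47. Any dye bias is part of these signs, since hypoxia RNA was in Cy5 on every saline array. In these 3 genes the late and early arrays overlapped, with differences of 0.01 ± 0.23, 0.06 ± 0.19 and 0.20 ± 0.19. Of 21 measured genes of glycolysis and glucose transport 17 had negative differences, with a median of -0.35. In this list 2 stood apart as lower late and 1 as higher late. Slc2a1, the glucose transporter GLUT1, had 0.66 and 0.68 late against 1.23 and 1.42 early (difference -0.65 ± 0.27). Slc16a3, which exports lactate, had -0.26 and -0.33 late against 1.36 and 1.08 early. Ldha, which makes lactate, had 1.06, 0.40, 0.00 and 0.52, so its phases overlapped. Pfkm, the muscle form of phosphofructokinase, was the member higher late (difference 0.79 ± 0.20).

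Of 23 other HIF targets 5 stood apart, all as lower late, against 2.3% of all genes. The list's median difference was -0.22. Bnip3, which marks mitochondria for removal, had 1.49 and 1.13 late against 2.25 and 1.80 early, so it was above 0 h on every array (difference -0.71 ± 0.26). Angptl4, an inhibitor of lipoprotein lipase, had 1.03 and -0.15 late against 1.66 and 2.02 early. Hmox1, which degrades heme, had 0.07 and 0.15 late against 1.05 and 0.67 early, and Cited2, which competes with HIF for its coactivator, had 0.91, -0.31, -0.72 and -0.69. The other probes of Cited2 gave smaller differences, of which -0.26 was nearest to 0. The core letters ACGTG, to which HIF binds, were in a promoter of 15 of 20 of these target genes and of 13 of 20 glycolysis genes. Counted by promoter, they were in 19.3% of all promoters. Among these targets, measured holders had a median difference of -0.28 (13 genes) and the others -0.07 (4 genes). Among glycolysis genes the medians were -0.31 (12 genes) and -0.37 (7 genes). The Bnip3 stretch is given because Bnip3 was above 0 h on every array and holds such letters: chr1:203155026-203155091 of GRCr8, minus strand, with 2 overlapping matches, 1 on each strand, in capitals.
Bnip3: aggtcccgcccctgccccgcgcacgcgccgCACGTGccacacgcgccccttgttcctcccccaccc

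Most chaperone genes and genes of the unfolded protein response had lower values late, by small amounts. Of 19 measured heat shock and protein folding genes 18 had negative differences, with a median of -0.47, and 3 stood apart. Hsph1 and Hspa8, chaperones of the cytosol, had 0.76, 1.48, 0.42 and 0.38 and 1.05, 1.44, 0.51 and 0.73 in order of duration. Each was highest at 12 h, with differences of -0.72 ± 0.23 and -0.62 ± 0.20, and the 4 probes of Hspa8 spanned -0.62 to -0.12. Between late and early arrays the hypoxia channel differed by -0.34 for Hsph1 and -0.30 for Hspa8. The 0 h channel differed by more, 0.38 and 0.33, so much of each difference lay in the 0 h channel. Hspa1a, the inducible HSP70, read 1.49, 5.32, 1.79 and 0.22, so its 12 h array was far above its 6 h array, the phases overlapped, and the signal was saturated on 1 array. The heat shock element was searched on both strands as GAA, 2 free bases, TTC, 2 free bases and GAA. It was in a promoter of 6 of 15 list genes and, counted by promoter, in 0.798% of all promoters. The match of Hsph1, on the reverse strand, is shown in capitals, as Hsph1 is the gene of the list that stood apart with a match and the largest difference. The stretch is chr12:10427302-10427367 of GRCr8, plus strand.
Hsph1: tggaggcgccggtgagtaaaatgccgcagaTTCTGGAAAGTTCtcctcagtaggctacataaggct
Holders of the element had a median difference of -0.39 (6 genes) and the other measured members -0.55 (9 genes).

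In the list of unfolded protein and amino acid response genes 21 of 26 measured members had negative differences, with a median of -0.34. Of the 26, 6 stood apart, all as lower late, against 2.3% of all genes. Herpud1 is described above. Chac1, which degrades glutathione, had 0.19 and 0.55 late against 1.19 and 1.28 early, and Manf, a secreted protein of the stressed endoplasmic reticulum, had 0.47 and 0.52 late against 1.03 and 1.26 early. Both were above 0 h throughout and nearer to it late, with differences of -0.87 ± 0.18 and -0.65 ± 0.16. Hspa5, the chaperone BiP, had 0.13 and 0.50 late against 0.75 and 1.19 early (difference -0.66 ± 0.23). The endoplasmic reticulum stress element was searched by the letters CCAAT, 9 free bases and CCACG on both strands. It was in a promoter of 7 of 27 genes of this list and, counted by promoter, in 0.0657% of all promoters. Measured holders had a median difference of -0.32 (6 genes) and the others -0.40 (16 genes). The Hspa5 stretch is shown as the best known holder of the element, chr3:38452943-38453015 of GRCr8, plus strand, with the match in capitals.
Hspa5: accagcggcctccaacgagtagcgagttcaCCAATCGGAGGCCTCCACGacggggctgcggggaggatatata

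In the extracellular matrix more genes were higher late than lower. Of 36 measured collagen and matrix genes 13 stood apart as higher late and 4 as lower late, against 2.51% and 2.3% of all genes. The median difference was 0.25. The list's median log2 ratio was -0.31, -0.28, -0.01 and 0.32 in order of duration. Col15a1, a basement membrane collagen, had -0.23 and -0.01 late against -1.78 and -1.43 early. Fbn1, the fibrillin of microfibrils, had -0.32 and 0.59 late against -1.28 and -1.11 early, and Ltbp2, a protein of the same fibrils kept in the list of activin and TGF-beta genes, had 0.80 and 1.14 late against -0.51 and -0.42 early. Fbln5, which guides elastic fibre assembly, had -0.79, -1.01, 0.43 and 1.11. The cross-linking enzyme Loxl1 had -0.08 and 0.37 late against -2.34 and -0.85 early, with saturated signal on 1 array. All 5 genes had both late arrays above both early arrays, with differences of 1.48 ± 0.28, 1.33 ± 0.31, 1.43 ± 0.25, 1.67 ± 0.42 and 1.74 ± 0.47. Elastin (Eln) and the fibrillar collagen Col3a1 had differences of 0.86 ± 0.31 and 0.84 ± 0.26, the second with saturated signal on 1 array. Col1a1 had -2.36, -0.52, -0.60 and 0.86, so its 12 and 24 h arrays overlapped.

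The 4 matrix genes lower late, Ccn3, Plod2, Lox and Dcn, were above 0 h on both early arrays. Ccn3, a secreted regulator of cell adhesion, had 2.72 and 2.23 late against 3.31 and 3.15 early. Plod2, which hydroxylates collagen lysines and is a HIF target, had 0.46 and 0.55 late against 1.10 and 1.09 early, although a second probe gave a difference of -0.06. Lox, a cross-linking enzyme and HIF target, had 2.72, 1.71, 1.34 and 1.46. Decorin (Dcn) had -0.34 and 0.27 late against 0.64 and 1.68 early. Ccn2, a profibrotic growth factor, was above 0 h on all arrays, with 2.21, 1.74, 2.42 and 1.96, and its phases overlapped. Osteopontin (Spp1) had 2.35, 3.17, 1.20 and 3.23 and overlapped likewise. Smooth muscle genes had list medians of 0.74, 0.48, 0.75 and 1.01 in order of duration and a median difference of 0.38 over 13 measured genes. Of these 3 stood apart, all as higher late, against 2.51% of all genes. Tpm1, a tropomyosin, had 1.27 and 1.01 late against 0.45 and 0.46 early, and smooth muscle myosin (Myh11) had -0.78, -1.03, -0.60 and 0.10, a difference of 0.65 with 0.13 on its other probe. Desmin (Des) had 1.63, 1.47, 1.81 and 1.93, a difference of 0.32 ± 0.20.

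Cholesterol synthesis and uptake genes all had higher values late. All 20 measured genes had positive differences, with a median of 0.48, and 7 stood apart, beside 2.51% of all genes. The list's median log2 ratio was -0.13, -0.10, 0.26 and 0.58 at 6, 12, 24 and 48 h. Hmgcs1, which makes the precursor of mevalonate, had 0.34 and 0.70 late against -0.87 and -0.29 early. Msmo1 and Sc5d, enzymes late in the pathway, had -0.45, -0.24, 0.47 and 0.62 and -0.43, -0.54, 0.04 and 0.68. Fdft1, which commits the pathway to sterols, had -0.31, -0.35, 0.25 and 0.74. These 4 were above 0 h late and below it early, with differences of 1.10 ± 0.38, 0.89 ± 0.22, 0.84 ± 0.23 and 0.82 ± 0.22, and adjusted p-values in limma of 0.37 to 0.44. Fatty acid synthesis genes had a median difference of 0.03 over 19 genes. Scd, a desaturase, had -1.01 and -0.37 late against -1.50 and -1.64 early, while Dgat2, which makes triglycerides, was lower late (difference -0.98 ± 0.26 on its brightest probe, -0.11 on another).

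**Figure D4:**
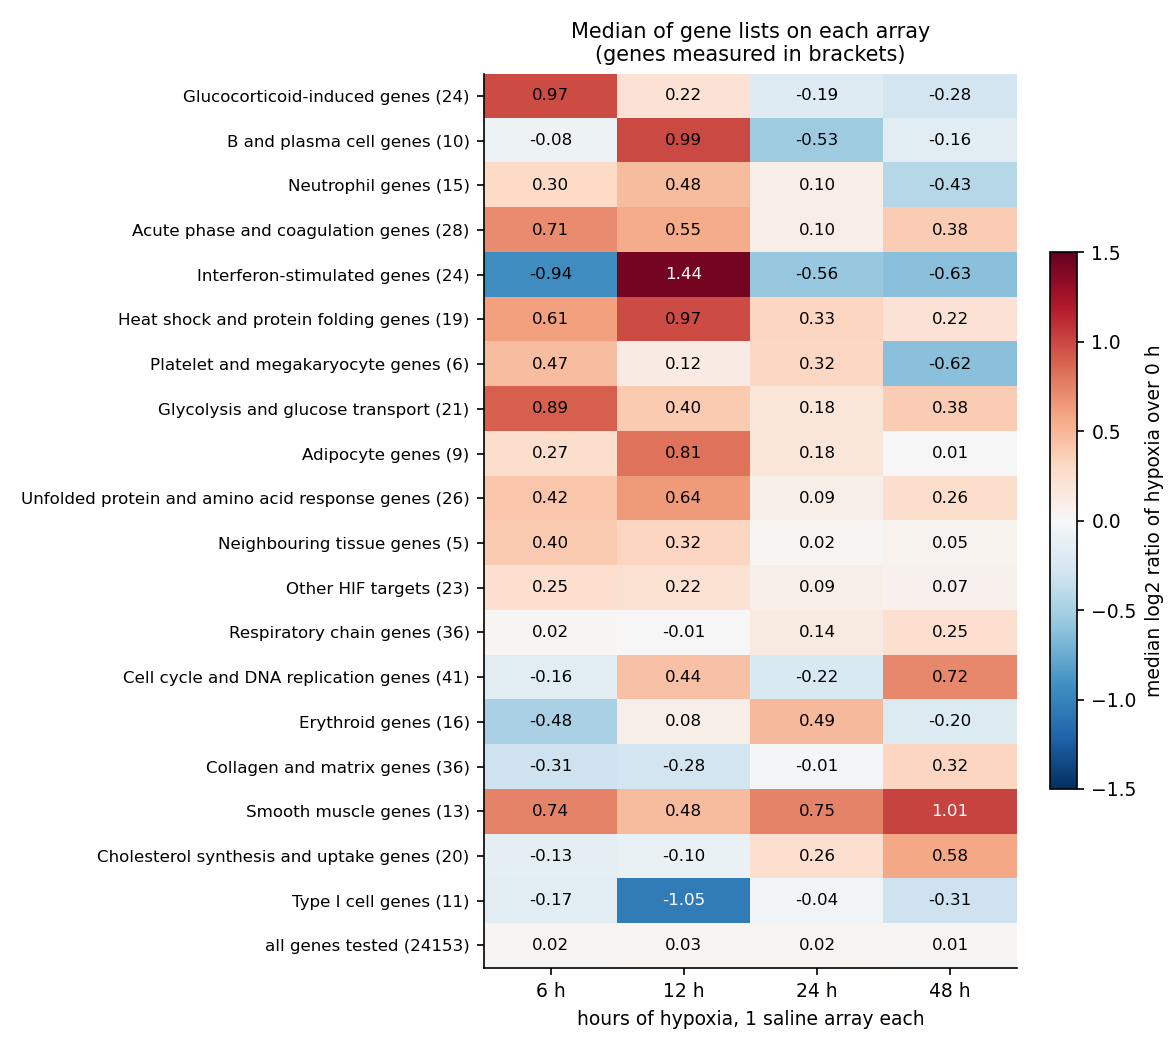
Median log2 ratio of hypoxia over 0 h (colour and number) of gene lists, 1 per row with the number of genes measured, on the 4 saline arrays in order of duration. The 12 lists of lowest and the 7 of highest late minus early median are shown in that order from top to bottom, with all genes tested last. The glucocorticoid row is highest at 6 h, the interferon row at 12 h and the cholesterol row at 48 h.

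Epithelial genes differed by cell type. Of 11 measured type I cell genes 5 stood apart, all as higher late, against 2.51% of all genes, and the median difference was 0.57. The median log2 ratio of the list was -0.17, -1.05, -0.04 and -0.31 in order of duration, so the 12 h array was the lowest. Aqp5, the water channel of type I cells, had -0.47 and -0.34 late against -1.38 and -2.16 early (difference 1.37 ± 0.36). Ager, the most specific type I marker, had -0.07, -2.20, -1.04 and -0.91, and its phases overlapped. Surfactant and type II cell genes were below 0 h on all arrays, with medians of -0.31, -0.89, -0.68 and -0.58, and 1 of 15 stood apart. Sftpc was saturated in at least 1 channel on all 4 arrays, so no difference is given. Club cell genes were split, with 4 of 16 higher late and 1 lower, against 2.51% and 2.3% of all genes. Cyp2f4 had 1.06, 0.66, 1.48 and 2.01, whereas Scgb1a1, the club cell secretory protein, had 0.63 and 0.86 late against 1.96 and 1.01 early.

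Genes of alveolar fluid clearance, which pump sodium and carry water out of the air spaces, were split. Atp1b1, a subunit of the sodium pump, had 1.20 and 0.83 late against 2.38 and 1.51 early (difference -0.93 ± 0.31). Aqp3, a water and glycerol channel, had 2.73, 2.11, 1.30 and 0.57 (difference -1.48 ± 0.41). Scnn1a, the alpha subunit of the channel that takes up sodium from the air space, had 1.63 at 6 h and 0.23, 0.49 and -0.15 afterwards, so its phases overlapped. Aqp1, the water channel of endothelium, had -0.27, 0.46, 0.29 and 0.10, a difference of 0.10 ± 0.23. Of the 22 measured members of this list 4 stood apart as lower and 1 as higher late, against 2.3% and 2.51% of all genes.

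Endothelial genes were below 0 h at all durations, with list medians of -0.45, -0.70, -0.46 and -0.81, and had a median difference of -0.09 over 29 genes. Tmem100, an endothelial membrane protein, was the furthest apart of those lower late, with -2.44 and -2.73 late against -1.12 and -1.87 early, so it was lower on each longer exposure (difference -1.09 ± 0.37). Nos3, the endothelial nitric oxide synthase, had -0.12 and -0.55 late against 0.82 and 0.28 early. Plvap, of the diaphragms of fenestrae and caveolae, had -1.75, -2.48, -2.52 and -2.28, and its phases overlapped. Angpt2, which destabilizes vessels, had 0.10 and 0.13 late against -1.50 and -0.57 early (difference 1.15 ± 0.31, with 0.24 on another probe). The endothelial sialomucin Emcn had 0.52 and 0.63 late against -0.48 and -0.35 early, and the apelin receptor Aplnr -0.39 and -0.28 late against -1.03 and -1.37 early. Among vasoactive genes, with a median difference of 0.01 over 31 genes, Gucy1b1, a subunit of the nitric oxide receptor, had -0.04 and -0.02 late against -0.85 and -1.25 early. Edn1, endothelin itself, had -0.09, -0.29, -0.13 and -0.97 (difference -0.36 ± 0.35).

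In several groups of genes the 12 h array stood away from the other 3 saline arrays. Interferon-stimulated genes had a median log2 ratio of 1.44 at 12 h, against -0.94 at 6 h, -0.56 at 24 h and -0.63 at 48 h. Isg15, a ubiquitin-like antiviral protein, had -1.52, 2.41, -0.86 and -1.11. Although 22 of 24 measured interferon genes had negative differences and the median was -0.50, 2 stood apart. These negative differences depend on the 12 h array, the only early array on which the list median was above 0 h. When the 12 h array was left out, the difference of Isg15 was 0.54. B and plasma cell genes were likewise highest at 12 h, with medians of -0.08, 0.99, -0.53 and -0.16 over 10 genes, and Jchain, the joining chain of secreted antibodies, had 0.33, 2.68, -0.89 and 1.28. T and NK cell genes were below 0 h on all arrays, with medians of -0.65, -0.38, -0.64 and -0.48, and 0 of 18 stood apart. The airway secretoglobin Scgb3a1 had 0.87, 5.19, 2.49 and 3.88, so it was above 0 h throughout and highest at 12 h, and its signal was saturated on 1 array. Whether the 12 h lung differed in cell content was not tested.

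Cell cycle genes were above 0 h at 12 and 48 h and not at 6 and 24 h. The medians over 41 measured genes were -0.16, 0.44, -0.22 and 0.72 in order of duration, and the median difference was 0.17. Top2a, which untangles DNA, had -1.02, 0.45, -0.80 and 1.17. The alternation leaves 0 of 41 genes standing apart between late and early, although 33 had a positive difference. Erythroid genes had medians of -0.48, 0.08, 0.49 and -0.20 over 16 genes, and 1 stood apart. Ribosomal protein genes had a median difference of -0.06, with 0 of 35 standing apart. Respiratory chain genes had 0.07, with 1 of 36 standing apart, Cox8b, whose 3 probes spanned 0.01 to 1.19. Cyp1a1, the cytochrome induced through the aryl hydrocarbon receptor, had -3.45, -3.85, -3.76 and -4.30, and its hypoxia signal was well above background on 1 of 2 late arrays. Fst, an antagonist of activin, had 2.61, 2.20, 2.18 and 1.69, and the chemokine Cxcl1 0.97, 0.43, 0.37 and 0.47. Pdk4, which restrains pyruvate use, did not pass the filter on dim probes.

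The other lists are given by their counts, beside 2.51% of all genes higher late and 2.3% lower late. Among them adipocyte genes had the largest share lower late, 33.3%, and several lists had none apart. Immediate early genes, the transient transcription factors of acute stimuli, had 0 higher and 2 lower late of 24, with a median difference of -0.03. Inflammatory cytokines and chemokines were even, with 3 higher and 3 lower of 26 and a median of -0.01. Antigen presentation genes had 2 lower of 15 and a median of -0.20, and fatty acid oxidation genes had 4 lower of 26, Acot1 among them, and a median of -0.10. Among cytochrome P450 and related genes 1 was higher and 4 were lower of 16, with a median of -0.14. Antioxidant genes had 1 lower of 27 (median -0.05), and ciliated cell genes had 1 lower of 15 (median -0.18) while standing above 0 h on all arrays with medians of 0.81, 1.53, 0.82 and 1.14. Genes of activin and TGF-beta signalling had 1 higher and 2 lower of 27, with a median of -0.07, and adhesion molecules 1 higher and 1 lower of 13, with a median of -0.06. Adipocyte genes had 3 lower of 9 and a median of -0.34. Of 6 platelet genes, 19 cardiac and skeletal muscle genes and 5 genes of neighbouring tissue 0 stood apart, with medians of -0.43, 0.03 and -0.25. For alveolar macrophages 1 gene was higher and 3 were lower of 16, with a median of -0.01.

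The time courses of cobalt and saline rats were compared by the difference of their late minus early contrasts. Of 24153 genes 0 (0%) passed in limma, with 1311 (5.43%) at an unadjusted p under 0.05, and the lowest adjusted p was 0.709. Over the alternatives run the count was 0, except that 32 genes passed without the saline 6 h array and 2 without the cobalt 12 h array. The 5 genes of lowest p with a current symbol all had an adjusted p of 0.92. Akap5 had a late minus early difference of -0.23 in cobalt rats against 1.55 in saline rats, and its cobalt ratios were 0.07, 0.45, -0.02 and 0.09, near 0 h throughout. Ifitm3 had 0.42 in cobalt rats against -1.13 in saline rats, and Ifitm7 had 0.42 against -0.75. In the 0 h channel of saline arrays Ifitm7 read 8.42 at 24 h, against 10.85, 10.85 and 10.54 at 6, 12 and 48 h. Nedd9, a scaffold protein of focal adhesions, had -0.45 in cobalt rats against 0.85 in saline rats (0.36 on its lowest probe in saline rats), and Retnlg, a resistin-like protein of myeloid cells, had 1.05 against -0.74. Since the pretreatments sit on separate slides with reversed dyes, a difference in the range of ratios between them cannot be told apart from a difference between pretreatments. Of the genes furthest apart in saline rats, Gal had -2.51 and Ankrd1 2.49 in cobalt rats, close to -2.56 and 2.48, whereas Il1r2 had 0.17 against -2.13 and Fkbp5 had -0.25 against -2.10, and none of these 4 passed the test of the difference.

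In the 0 h channel of the saline arrays, the late minus early difference measures the arrays and not the rats. Of 24153 genes 0 (0%) passed in limma and 1919 (7.95%) had an unadjusted p under 0.05. With an array left out the count was 9 without the 6 h array, 5 without the 12 h array, 89 without the 24 h array and 54 without the 48 h array, so the test also called genes in this channel once a phase was down to 1 array. For the 10 genes of lowest p in the ratio, the 0 h channel differed by -0.14 to 0.38 on the log2 scale. The largest of these was 0.38, for Herpud1, whose hypoxia channel differed by -0.57 between late and early arrays, beside -0.95 for the ratio.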

How the data were processed

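Lung RNA of hypoxic rats and of 0 h rats was hybridised together on 2-colour Agilent arrays, 8 in all. The deposited scanner files hold spot intensity in each channel and, per the file headers, were made with Feature Extraction 9.5.1.1, whose log10 ratio is background-subtracted and dye-normalised. The deposited value table holds log2 ratios; it was set against the scanner files' log ratios and used as an alternative only. The samples were grouped by the labels, and columns of values of no sample numbered 0.

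Mean intensity was corrected with normexp (offset 50) and normalised within each array by loess, control spots having weight 0. Outlier spots were left out and spots of a probe averaged. Of 41012 probes, 28440 were kept because 4 or more of the 8 arrays had a signal well above background in 1 channel or the other, and a further 91 were dropped for a missing value. The brightest probe per gene gave 24153 genes, 12129 of them with a gene symbol. The symbol was the current one of the RefSeq table or, where nothing matched, the gene name in the array files. All 8 arrays were fitted in limma 3.58.1 (R 4.3.3) with a mean per pretreatment and phase, which leaves 4 residual degrees of freedom, moderated with an intensity trend. Genes with a Benjamini-Hochberg adjusted p under 0.05 were called. The number of arrays, 1 per duration, limits the precision. The fit was tested on simulated data.

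Named genes were the 10 of lowest p, up to 4 of lowest p per list, every clock gene, the 5 of lowest p for the difference between pretreatments and a set chosen by name. The 15 furthest apart in each direction, the 5 of lowest p in each class and further examples were added after values were seen. Some genes that these rules name are not reported here. The members and the 42 lists were chosen with earlier results of these data known. Promoter sequences are from RefSeq on GRCr8. Alternatives covered background, normalisation, filters, probe choice, the model and each array left out.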

Additional observations from a re-analysis of the deposited data

How the results depend on the processing

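The count of genes called between late and early saline arrays was 0 in every alternative other than the line over log2 duration (2 genes) and the fits without an array, which called 0 to 59. The count of called differences between cobalt and saline rats ranged over 0 to 32 with an array left out and was 0 under the other settings. The 0 h channel gave 1 call with medians set equal in place of quantiles, and 5 to 89 with an array left out. The number of genes standing apart was 1162 as reported, 3063 with the software's log ratios, 3082 with the deposited value table and 773 with ratios scaled between arrays, and 1406 to 2401 with a saline array left out, where fewer arrays must be clear of each other. The number of those genes nearer to 0 h late was 823 as reported, 1982 with the software's log ratios and 1994 with the value table. Their share was 70.8% as reported, 64.7% with either of these and 63.4% with median centring. Genes further from 0 h late numbered 945 and 952 with the software's log ratios and the value table and 497 with median centring, against 312 as reported, and those on opposite sides numbered 136 with each of the first 2, against 27. List medians moved beyond their spread in 60 recomputed values and not in 402. The cause was not tested where none is given.

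Directions of named genes turned only where the difference was small or 1 array decided it. With the line over log2 duration the difference was -0.27 for Ager, -0.017 for Bhlhe40, -0.015 for Ccn2, -0.00077 for Epas1, -0.015 for Per3, 0.13 for Spp1 and -0.15 for Tef. Scaling between arrays gave -0.10 for Epas1, and median centring gave -0.052 for Hif1a. With an array left out the lowest and highest differences were -0.91 and 1.22 for Ager, -0.26 and 0.46 for Aqp1, -0.022 and 0.45 for Ccn2, -0.78 and 0.066 for Edn1, -0.16 and 0.28 for Epas1, -0.20 and 0.22 for Hif1a, -3.40 and 0.54 for Isg15, -0.15 and 0.99 for Itgam, -0.65 and 0.074 for Plvap, -2.00 and 2.32 for Scgb3a1, -0.55 and 0.28 for Sgk1, -1.56 and 0.47 for Spp1 and -0.52 and 1.45 for Top2a. Among clock genes they were -0.24 and 0.41 for Bhlhe40, -0.78 and 0.37 for Bmal1, -0.15 and 0.38 for Cry2, -0.61 and 0.87 for Dbp, -0.15 and 0.22 for Npas2, -0.060 and 0.57 for Nr1d2, -1.82 and 0.14 for Per2, -0.39 and 0.72 for Per3, -0.090 and 0.0059 for Rora and -0.45 and 0.61 for Tef. Per2 turned when the 6 h array was left out, and Isg15 when the 12 h array was. Scgb3a1 turned without the 6 h array (-2.00) and also without the 48 h array (-0.54).

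No paired analysis was possible because each duration holds 1 array and no replicate number links arrays of the late and early groups. Dim probes limit the rest: a gene kept through few arrays above background has a ratio pulled towards 0.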
